A study of Homo sapiens with 16 samples.

Results

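The genes described here encode the enzymes of glycolysis together with the carriers that bring glucose into the cell and take lactate out of it. The set holds 33 genes, taken by symbol: 2 glucose transporters, the enzymes from hexokinase to lactate dehydrogenase with their isozymes, 2 monocarboxylate transporters, the regulatory kinases of phosphofructokinase and pyruvate dehydrogenase, and genes at the branches to glycogen and gluconeogenesis. They belong to 26156 named genes with a TPM (a transcript level scaled for gene length and library size) above 0 in any library. Of these, 15958 genes reached a TPM of 1 in at least 2 libraries and were tested, and 32 of the 33 members were among them. FBP1, the fructose bisphosphatase of gluconeogenesis, was listed at 0 in 14 of the 16 libraries and was not tested.

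The cells were A549, a human lung adenocarcinoma line, and in every group, the controls included, they overexpressed CD63-Nluc, which joins the tetraspanin CD63 of exosome membranes to a luciferase. They were given DMSO, the solvent control, or 1 of 3 compounds that the labels call inhibitors and know only by the codes 5G6, 6D7 and 7F8. The labels give 4 µM for every group, also for DMSO, and 4 h or 48 h of treatment, which makes 8 groups of 2 replicates each. The labels do not name the promoter of the fusion, and they do not say whether the cells were 1 clone.

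Glycolysis splits glucose into pyruvate in the cytosol and yields ATP and NADH on the way. Lactate dehydrogenase turns pyruvate into lactate to restore NAD+, and the pyruvate dehydrogenase kinases (PDK) hold back its entry into mitochondria. Many tumour lines, A549 among them, run this route fast even with oxygen, and hypoxia-inducible factors and MYC are textbook activators of its genes.

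The libraries held 6.10 to 8.86 aligned gigabases each, and 13378 to 14909 genes had a TPM of at least 1. Mitochondrial genes took 18.9 to 32.5% of the deposited TPM in 14 libraries and 6.13 and 6.48% in the 6D7 libraries of 48 h, so all levels below are TPM after these genes were dropped and the rest rescaled. Markers of A549 were high: KRT8, an epithelial keratin, was at 1502 to 3427 TPM, AKR1B10, an aldo-keto reductase, at 1343 to 6730 TPM, and CDKN2A, which this line has lost, at 0 in all 16 libraries. EPCAM, an epithelial adhesion protein, was low, at 0.375 to 11.4 TPM. Of the 3 endothelial markers (CDH5, VWF and PECAM1), the highest value was 0.573 TPM, for PECAM1. Of the 3 leukocyte markers, PTPRC and CD3E reached at most 0.0970 TPM and CD14 reached 11.3 TPM. Of the 4 fibroblast markers, COL3A1 and PDGFRB reached at most 0.116 TPM, THY1 4.90 TPM and COL1A1 20.8 TPM. In bulk RNA, fewer cells of a kind and less RNA per cell cannot be told apart.

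Promoter sequences of a few members are printed to show where a short motif lies in them. The motif ACGTG is the core that hypoxia-inducible factors bind in textbook accounts, and it was searched on both strands, so that it also appears as CACGT. The sequences are the 250 bases before the RefSeq start site (GRCh38.p14), 5′ to 3′ on the strand of the gene, with the matches in capitals. ALDOC (chr17:28576896-28577145, minus strand), PGK1 (chrX:78103998-78104247, plus strand) and ENO2 (chr12:6914330-6914579, plus strand) were higher than DMSO after 48 h in the results that follow. PDK1 (chr2:172555123-172555372, plus strand) was higher too and holds no match, and GBE1 (chr3:81761646-81761895, minus strand) holds 1 match and did not pass the test.
ALDOC: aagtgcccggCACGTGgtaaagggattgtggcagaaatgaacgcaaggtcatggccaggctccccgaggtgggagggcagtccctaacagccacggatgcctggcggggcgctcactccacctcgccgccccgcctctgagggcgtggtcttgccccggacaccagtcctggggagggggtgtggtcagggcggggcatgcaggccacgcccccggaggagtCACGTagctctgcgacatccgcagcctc
PGK1: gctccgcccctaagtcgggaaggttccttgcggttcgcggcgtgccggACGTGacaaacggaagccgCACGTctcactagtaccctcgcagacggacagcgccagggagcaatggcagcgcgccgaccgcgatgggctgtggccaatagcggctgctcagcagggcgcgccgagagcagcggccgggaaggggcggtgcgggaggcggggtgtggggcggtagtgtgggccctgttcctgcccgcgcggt
ENO2: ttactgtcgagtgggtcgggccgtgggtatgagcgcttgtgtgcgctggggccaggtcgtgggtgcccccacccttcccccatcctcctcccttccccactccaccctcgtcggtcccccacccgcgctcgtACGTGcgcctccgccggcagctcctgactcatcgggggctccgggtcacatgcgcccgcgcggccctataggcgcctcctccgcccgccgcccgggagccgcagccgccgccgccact
PDK1: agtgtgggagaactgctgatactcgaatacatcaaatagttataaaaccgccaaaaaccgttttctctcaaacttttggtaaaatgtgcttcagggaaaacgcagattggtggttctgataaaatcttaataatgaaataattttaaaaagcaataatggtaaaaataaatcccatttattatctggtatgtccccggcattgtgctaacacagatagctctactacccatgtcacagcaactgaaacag
GBE1: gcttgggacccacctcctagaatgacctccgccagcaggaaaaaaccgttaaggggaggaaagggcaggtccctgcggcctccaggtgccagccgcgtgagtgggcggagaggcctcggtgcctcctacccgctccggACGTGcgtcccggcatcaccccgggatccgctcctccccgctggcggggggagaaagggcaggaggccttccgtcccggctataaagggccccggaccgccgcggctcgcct
The motif was in 11 of the 30 members with an entry (36.7%) and in 2599 of 11264 tested genes (23.1%), counted in windows of the same length. Among the members called higher at 48 h it was in 5 of 11 (45.5%), and among the others in 6 of 19 (31.6%). LDHA, the A subunit of lactate dehydrogenase, had the most matches, 5, of which the 4 in its 2 copies of CACGTG are the same letters read on both strands, and it was not called. The related GCGTG, also searched on both strands, was in 12 of 30 members (40.0%) and in 44.7% of tested genes. The longer CACGTG, whose every copy also counts as ACGTG, was in 4 of 30 members (13.3%) and in 8.9% of tested genes. A match describes letters and not a bound site. The window comes from a single listed start site of each gene, so a missing match holds for that window alone.

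In DMSO the members spanned a wide range of levels per length. GAPDH, which oxidises glyceraldehyde 3-phosphate, had the highest median, 9658 TPM over the 4 DMSO libraries. Pyruvate kinase PKM followed at 3663 TPM, enolase ENO1 at 3185 TPM, LDHA at 1951 TPM and LDHB at 1623 TPM. The lowest tested members were hexokinase HK2 at 1.14 TPM, PDK1 at 4.69 TPM and PFKFB2, a kinase that makes the phosphofructokinase activator fructose 2,6-bisphosphate, at 7.56 TPM. For some members the deposited FPKM, to which TPM is proportional within a library, was high for the read coverage in the same table. The ratio of FPKM to coverage was scaled so that the genes with the lowest ratios in a library stood at 1.0. Its median was 19.4 for PDK1, 16.5 for PFKFB3, 16.2 for PGM1 and 10.1 for HK1, against 1.0 for SLC2A1, PGK1 and ENO2. Levels between genes therefore depend on the unit. Between libraries the ratio varied most for PDK3, from 1.14 to 1.86, PDK1, from 17.3 to 22.9, and PDK2, from 1.46 to 1.90. GAPDH, PKM, LDHA, ENO1, PGK1, PGAM1, TPI1 and ALDOA have near-identical pseudogene copies elsewhere in the genome, and their levels are uncertain to that extent.

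After 4 h the test called none of the members. Each compound was compared with DMSO of the same hour in 1 limma fit over all 16 libraries on log2(TPM + 1), with Benjamini-Hochberg adjustment over all 15958 genes, and an adjusted p below 0.05 counts as called. The fit called 0 of 32 members with 5G6, 0 with 6D7 and 0 with 7F8, beside 0% of all tested genes in each. At an unadjusted p below 0.05 there were 3, 2 and 0 members, beside 3.25, 1.13 and 5.43% of all tested genes. The median log2 difference of the members was 0.17 with 5G6, 0.04 with 6D7 and -0.01 with 7F8, beside 0.11, 0.01 and -0.11 over all tested genes. All differences below are on this log2(TPM + 1) scale, which understates those of genes with low TPM.

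The values at 4 h that lay farthest from DMSO belonged to 5G6. PFKFB2 was at 23.1 and 14.5 TPM with 5G6 and at 7.72 and 5.75 TPM with DMSO, a log2 difference of 1.33 (SE 0.36, limma adjusted p = 0.726). ALDOC, the aldolase isozyme best known from brain, was at 37.7 and 13.3 TPM against 6.67 and 9.74 TPM, a difference of 1.37 (SE 0.57, limma adjusted p = 1). Both 5G6 libraries lay above both DMSO libraries for these 2 genes, and the 5G6 pair itself differed widely for ALDOC. SLC2A3, the glucose transporter GLUT3, was at 15.6 and 21.6 TPM with 5G6 and at 6.94 and 10.4 TPM with DMSO, a difference of 1.02 (SE 0.94, limma adjusted p = 1). HK2 was between 0.312 and 2.05 TPM in all 8 libraries of 4 h.

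After 48 h, members were higher than DMSO with all 3 compounds, and none was called lower. With 5G6 the test called 9 of 32 members, all higher, beside 4.06% of all tested genes, 1.95% higher and 2.11% lower. With 6D7 it called 10, all higher, beside 5.97% of all genes, 2.39% higher and 3.58% lower. With 7F8 it called 3, all higher, beside 8.79% of all genes, 2.29% higher and 6.5% lower. The median log2 difference of the members was 0.54 with 5G6, 0.43 with 6D7 and 0.21 with 7F8, whereas that of all tested genes was -0.07, -0.06 and -0.18. The 3 comparisons share the same pair of DMSO libraries.

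**Figure D1:**
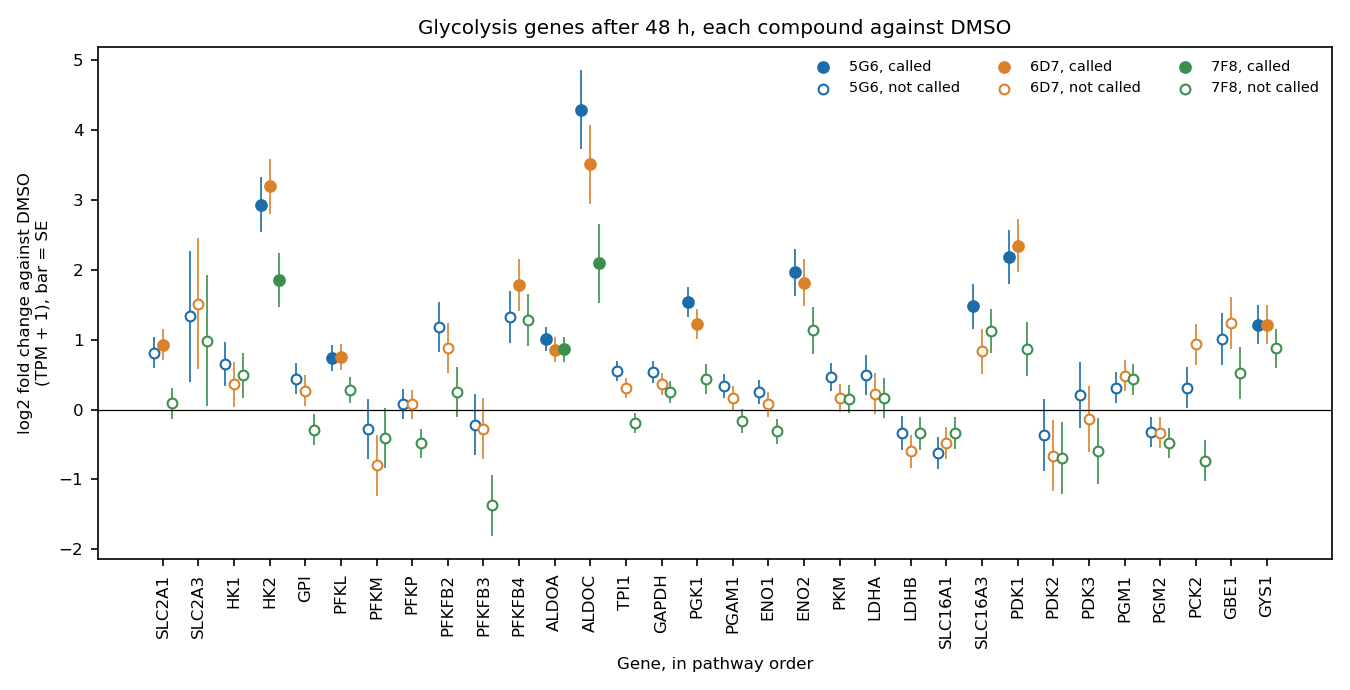
Log2 difference from DMSO at 48 h, on the log2(TPM + 1) scale, for the 32 tested members in pathway order, with 1 point for each compound and bars of 1 standard error from the limma fit. Filled points passed the test, and all of them lie above 0, from 0.74 for PFKL to 4.29 for ALDOC.

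Both libraries lay above both DMSO libraries for 20 members with 5G6, beside 20% of all tested genes. This held for 17 members with 6D7 (20.7% of all genes) and for 12 with 7F8 (16.7%). Both lay below for 3 members with 5G6 (28.7% of all genes), 3 with 6D7 (27.1%) and 11 with 7F8 (38.7%). A log2 difference of at least 1 on the log2(TPM + 1) scale was seen for 12, 9 and 5 members. In the other direction, 1 member, PFKFB3 with 7F8, was lower by at least 1. The share of all genes at this size was not counted.

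The size of these counts rested on single libraries, control and treated. At 48 h the second library was above the first for 31 members with 5G6, 28 with 6D7 and 24 with 7F8. Likewise, the first DMSO library of 48 h held lower levels than the second for 29 of the 32 members. Without that first library, no member was called with any compound, and over all genes 9, 13 and 65 calls were left of 648, 953 and 1403. Without the second, 7 members were called with 5G6, 7 with 6D7 and 1 with 7F8. Leaving out either 5G6 library left 5 and 2 members, leaving out the first 6D7 library left 5, and leaving out the first 7F8 library left 0. A fit to the 8 libraries of 48 h alone called 0 members with each compound. The scale of TPM mattered as well. With mitochondrial genes kept, 17 members were called with 6D7 and 6 with 7F8, beside 12.4 and 8.49% of all genes. Median-of-ratios scaling called 7 with 7F8, beside 7.12% of all genes. The members called in the full fit stayed above DMSO in every one of these settings. The lowest differences were 0.60 for PFKL with 5G6, 0.61 for PFKL with 6D7 and 0.62 for ALDOA with 7F8. These members were called for their differences in the same libraries, so a kept direction is not independent support.

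Of the glucose transporters, SLC2A1 (GLUT1), the main carrier of many tumour cells, rose with 6D7 at 48 h. It was at 120 and 172 TPM with DMSO and at 266 and 282 TPM with 6D7, a log2 difference of 0.93 (SE 0.22, limma adjusted p = 0.0328). With 5G6 it was at 237 and 270 TPM, a difference of 0.81 (SE 0.22) that missed the threshold (limma adjusted p = 0.0636). The 5G6 and 6D7 libraries all lay above both DMSO libraries. With 7F8, SLC2A1 was at 124 and 189 TPM and overlapped the controls. SLC2A3 was at 7.72 and 42.6 TPM with DMSO, 20.9 and 109 TPM with 5G6, 29.4 and 101 TPM with 6D7, and 15.9 and 87.3 TPM with 7F8. Its second replicate was 3.45 to 5.52 times the first in all 4 groups, and its differences from DMSO, 1.33, 1.52 and 0.99 (SE 0.94 each), were not called (limma adjusted p = 0.494, 0.383 and 0.567). The fit does not pair libraries by number, so this gap enters the SE. With the replicate number as a block, SLC2A3 was not called either (limma adjusted p = 0.186, 0.120 and 0.288). That block is held equal at 4 h and 48 h, so it takes up only part of the gap. SLC2A14, a near copy of SLC2A3 that could take its reads, was at 0.272 TPM or less in every library.

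Hexokinase traps glucose in the cell as glucose 6-phosphate, and HK2 is the isozyme that is inducible in many tissues. HK2 rose with all 3 compounds at 48 h. Its TPM was 1.00 and 2.66 with DMSO, 16.8 and 23.0 with 5G6, 33.6 and 16.9 with 6D7, and 12.1 and 6.33 with 7F8. All 6 treated libraries lay above both controls. The log2 difference was 2.93 with 5G6, 3.20 with 6D7 and 1.86 with 7F8 (SE 0.39 each), with limma adjusted p = 0.00635, 0.00370 and 0.0160. HK1, the widely expressed isozyme, was at 71.0 and 128 TPM with DMSO and between 89.3 and 182 TPM with the compounds, and its differences of 0.65, 0.36 and 0.49 were not called (limma adjusted p = 0.300, 0.568 and 0.383). The share of HK2 in the summed TPM of both was 1.39 and 2.04% with DMSO, 12.0 and 11.2% with 5G6, 27.4 and 9.07% with 6D7, and 8.76 and 4.22% with 7F8. Since the ratio of FPKM to coverage was high for HK1, these shares depend on the unit. By coverage they were 12.4 and 16.1% with DMSO and between 30.6 and 77.0% with the compounds. In both units, every treated library had the higher share. These shares leave out HKDC1, a further hexokinase gene outside the set. HKDC1 was at 90.3 and 52.6 TPM with DMSO and between 47.2 and 128 TPM with the compounds, and was not called.

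**Figure D2:**
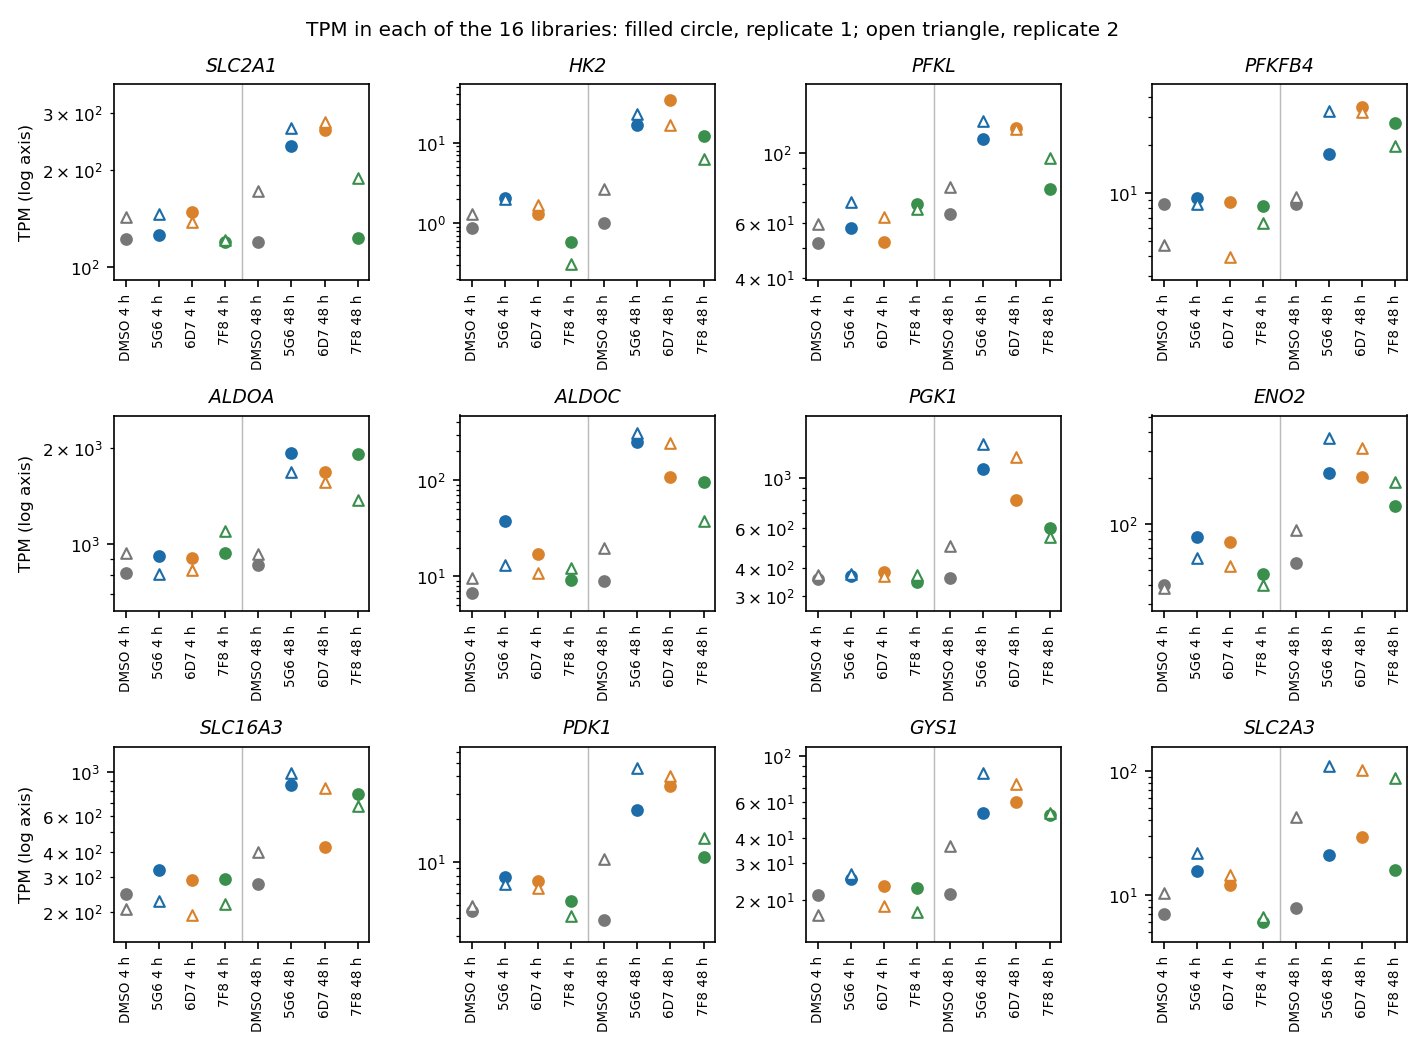
TPM, on log axes that differ between panels, in each of the 16 libraries for the 11 members called at 48 h and for SLC2A3, with circles for replicate 1 and triangles for replicate 2. For HK2 the DMSO libraries of 48 h sit at 1.00 and 2.66 TPM and the treated ones between 6.33 and 33.6 TPM, whereas SLC2A3 separates the replicates in all 4 groups of 48 h.

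GPI, which converts glucose 6-phosphate to fructose 6-phosphate, was not called and had log2 differences of 0.44, 0.27 and -0.29. Phosphofructokinase commits the sugar to glycolysis, and among its subunits only PFKL was called. PFKL was at 63.9 and 78.3 TPM with DMSO, 111 and 127 TPM with 5G6, 120 and 119 TPM with 6D7, and 77.1 and 96.9 TPM with 7F8. It rose by 0.74 with 5G6 (SE 0.19, limma adjusted p = 0.0478) and by 0.75 with 6D7 (SE 0.19, limma adjusted p = 0.0377), and with 7F8 the groups overlapped. Both calls were lost whichever of the 4 libraries compared was left out. PFKP, the subunit with the highest level at 510 and 546 TPM in DMSO, had differences of 0.08, 0.07 and -0.49 (limma adjusted p = 0.897, 0.886 and 0.181). PFKM had differences of -0.28, -0.80 and -0.41 (limma adjusted p = 0.801, 0.319 and 0.622).

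The PFKFB enzymes make and break fructose 2,6-bisphosphate, the activator of phosphofructokinase, and PFKFB4 rose with 6D7. PFKFB4 was at 8.54 and 9.38 TPM with DMSO, 17.6 and 32.5 TPM with 5G6, 34.3 and 32.2 TPM with 6D7, and 27.4 and 19.6 TPM with 7F8. All 6 treated libraries lay above the controls. The difference was 1.78 with 6D7 (SE 0.37, limma adjusted p = 0.0194), 1.33 with 5G6 (limma adjusted p = 0.0712) and 1.28 with 7F8 (limma adjusted p = 0.0536). PFKFB3 took the other direction with 7F8, at 77.5 and 88.0 TPM against 268 and 173 TPM with DMSO, a difference of -1.37 (SE 0.44) that was not called (limma adjusted p = 0.0738). With 5G6 and 6D7 it was within 159 to 216 TPM, with differences of -0.22 and -0.28 (limma adjusted p = 0.856 and 0.776). PFKFB2 was at 8.60 and 7.41 TPM with DMSO and at 16.7 and 22.6 TPM with 5G6, a difference of 1.19 (SE 0.36, limma adjusted p = 0.0933). With 6D7 and 7F8 it differed by 0.88 and 0.25 (limma adjusted p = 0.179 and 0.728).

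Aldolase cleaves fructose 1,6-bisphosphate, and both of its isozymes in the set rose with all 3 compounds. ALDOC was at 9.03 and 19.7 TPM with DMSO, 253 and 312 TPM with 5G6, 108 and 246 TPM with 6D7, and 95.8 and 38.1 TPM with 7F8. Its log2 difference was 4.29 with 5G6, the largest of the members at this time, 3.51 with 6D7 and 2.10 with 7F8 (SE 0.57 each), with limma adjusted p = 0.00635, 0.00899 and 0.0408. ALDOA, the main isozyme, was at 858 and 929 TPM with DMSO, 1931 and 1676 TPM with 5G6, 1674 and 1565 TPM with 6D7, and 1910 and 1376 TPM with 7F8. It differed by 1.01, 0.86 and 0.86 (SE 0.18 each), with limma adjusted p = 0.0131, 0.0186 and 0.0142. For both genes, each treated library lay above both controls. The ALDOC share of their summed TPM was 1.04 and 2.07% with DMSO and between 2.69 and 15.7% with the compounds.

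**Figure D3:**
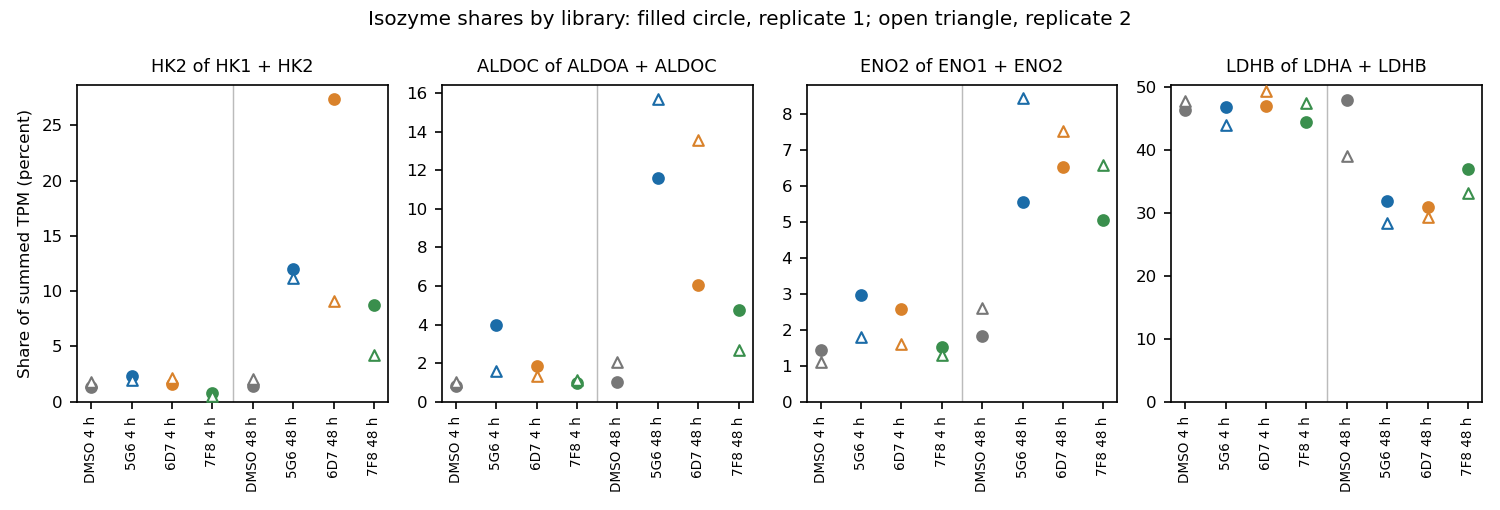
Share of 1 isozyme in the summed TPM of its pair, in percent, for each of the 16 libraries, with circles for replicate 1 and triangles for replicate 2 and axes that start at 0 and differ between panels. At 48 h every treated library lies above both DMSO libraries for HK2, ALDOC and ENO2 and below both for LDHB.

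In the lower arm of the pathway, phosphoglycerate kinase PGK1, which makes ATP, rose with 5G6 and 6D7. PGK1 was at 360 and 501 TPM with DMSO, 1093 and 1407 TPM with 5G6, 796 and 1240 TPM with 6D7, and 601 and 547 TPM with 7F8. The difference was 1.54 with 5G6 (SE 0.22, limma adjusted p = 0.00752) and 1.22 with 6D7 (SE 0.22, limma adjusted p = 0.0119). With 7F8 it was 0.43 (SE 0.22, limma adjusted p = 0.246), although both libraries lay above the controls. ENO2, the enolase best known from neurons, was at 55.3 and 91.0 TPM with DMSO, 214 and 365 TPM with 5G6, 204 and 313 TPM with 6D7, and 131 and 189 TPM with 7F8. Again all 6 treated libraries lay above both controls. ENO2 rose by 1.96 with 5G6 (SE 0.34, limma adjusted p = 0.0119) and by 1.82 with 6D7 (SE 0.34, limma adjusted p = 0.0130), and its difference with 7F8, 1.14, was not called (limma adjusted p = 0.0571). ENO1, whose TPM was far higher, had differences of 0.25, 0.07 and -0.31 (limma adjusted p = 0.501, 0.862 and 0.314). The ENO2 share of both was 1.82 and 2.61% with DMSO and between 5.06 and 8.46% with the compounds. This share leaves out ENO3, a further enolase gene outside the set. ENO3 was at 105 and 77.9 TPM with DMSO and between 67.1 and 165 TPM with the compounds, and was not called.

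The other enzymes of the lower arm did not pass the test. GAPDH was at 9707 and 10839 TPM with DMSO and at 14620 and 15135 TPM with 5G6, a difference of 0.54 (SE 0.16, limma adjusted p = 0.0824). TPI1, the triose-phosphate isomerase, had a difference of 0.55 with 5G6 (SE 0.14, limma adjusted p = 0.0582), 0.31 with 6D7 and -0.20 with 7F8. PGAM1, the mutase, had differences of 0.34, 0.17 and -0.17, and PKM of 0.47, 0.16 and 0.15.

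At the lactate end, SLC16A3 (MCT4), the carrier that exports lactate from glycolytic cells, rose with 5G6. It was at 276 and 398 TPM with DMSO, 867 and 990 TPM with 5G6, 424 and 828 TPM with 6D7, and 776 and 676 TPM with 7F8. All treated libraries lay above the controls, and the first 6D7 library lay close to the second control. The difference was 1.48 with 5G6 (SE 0.32, limma adjusted p = 0.0279), and this call was lost whichever of the 4 libraries compared was left out. With 6D7 it was 0.84 (limma adjusted p = 0.154) and with 7F8 1.13 (limma adjusted p = 0.0506). SLC16A1 (MCT1), which carries lactate both ways, was at 41.2 and 37.7 TPM with DMSO and between 25.2 and 34.9 TPM with the compounds, with differences of -0.62, -0.48 and -0.33 (limma adjusted p = 0.167, 0.254 and 0.416).

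LDHA was at 1738 and 2575 TPM with DMSO, 2527 and 3513 TPM with 5G6, 1801 and 3416 TPM with 6D7, and 2126 and 2657 TPM with 7F8. The groups overlapped with every compound, and no difference was called (0.49, 0.23 and 0.17). LDHB, the subunit that favours lactate oxidation, was at 1597 and 1649 TPM with DMSO and below both values in all treated libraries, at 809 to 1416 TPM. Its differences of -0.33, -0.60 and -0.34 were not called (limma adjusted p = 0.504, 0.169 and 0.422). The LDHB share of their summed TPM was 47.9 and 39.0% with DMSO, 32.0 and 28.4% with 5G6, 31.0 and 29.3% with 6D7, and 36.9 and 33.1% with 7F8, and the treated values did not overlap the controls.

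Among the pyruvate dehydrogenase kinases in the set, PDK1 rose with 5G6 and 6D7. PDK1 was at 3.87 and 10.4 TPM with DMSO, 23.4 and 46.0 TPM with 5G6, 34.2 and 40.0 TPM with 6D7, and 10.8 and 14.8 TPM with 7F8. The 5G6 and 6D7 libraries lay clear of the controls, while the first 7F8 library was next to the second control. The difference was 2.18 with 5G6 (SE 0.38, limma adjusted p = 0.0131), 2.35 with 6D7 (SE 0.38, limma adjusted p = 0.00932) and 0.87 with 7F8 (limma adjusted p = 0.187). With read coverage in place of TPM, the differences of PDK1 were 1.07 with 5G6 and 1.13 with 6D7, still called (limma adjusted p = 0.0491 and 0.0354), and 0.31 with 7F8. Here too 1 was added before the log2. PDK1 had little coverage for its TPM, so these differences are understated more than those in TPM. PDK2 had differences of -0.36, -0.66 and -0.70 and PDK3 of 0.21, -0.13 and -0.60, with limma adjusted p from 0.447 to 0.912. PDK4, a further kinase of this family outside the set, was at 64.4 and 122 TPM with DMSO at 48 h. It was at 38.7 and 120 TPM with 5G6, 16.3 and 95.5 TPM with 6D7, and 23.4 and 65.7 TPM with 7F8. Each compound overlapped the controls for PDK4, which was not called.

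Of the members at the branch points, glycogen synthase GYS1 rose with 5G6 and 6D7. GYS1 was at 21.3 and 36.5 TPM with DMSO, 53.1 and 82.3 TPM with 5G6, 59.5 and 73.4 TPM with 6D7, and 51.5 and 52.6 TPM with 7F8. All 6 treated libraries lay above the controls. The difference was 1.22 with 5G6 (SE 0.28, limma adjusted p = 0.0358), 1.21 with 6D7 (SE 0.28, limma adjusted p = 0.0300) and 0.88 with 7F8 (limma adjusted p = 0.0756). GBE1, the glycogen branching enzyme, was at 57.4 and 103 TPM with DMSO, 123 and 199 TPM with 5G6 and 171 and 194 TPM with 6D7, with differences of 1.01 and 1.23 that were not called (SE 0.37 each, limma adjusted p = 0.160 and 0.0755). PGM1, a phosphoglucomutase, and PGM2, its relative that acts on phosphopentoses, had differences of 0.31 to 0.48 and of -0.48 to -0.32, none called. PCK2, the mitochondrial enzyme that makes phosphoenolpyruvate, was at 30.2 and 38.6 TPM with DMSO, 39.4 and 46.1 TPM with 5G6, 57.9 and 75.8 TPM with 6D7, and 15.1 and 26.9 TPM with 7F8. It lay above the controls with 5G6 and 6D7 and below them with 7F8, and none of these differences was called (0.31, 0.94 and -0.73, limma adjusted p = 0.637, 0.0857 and 0.149).

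**Figure D4:**
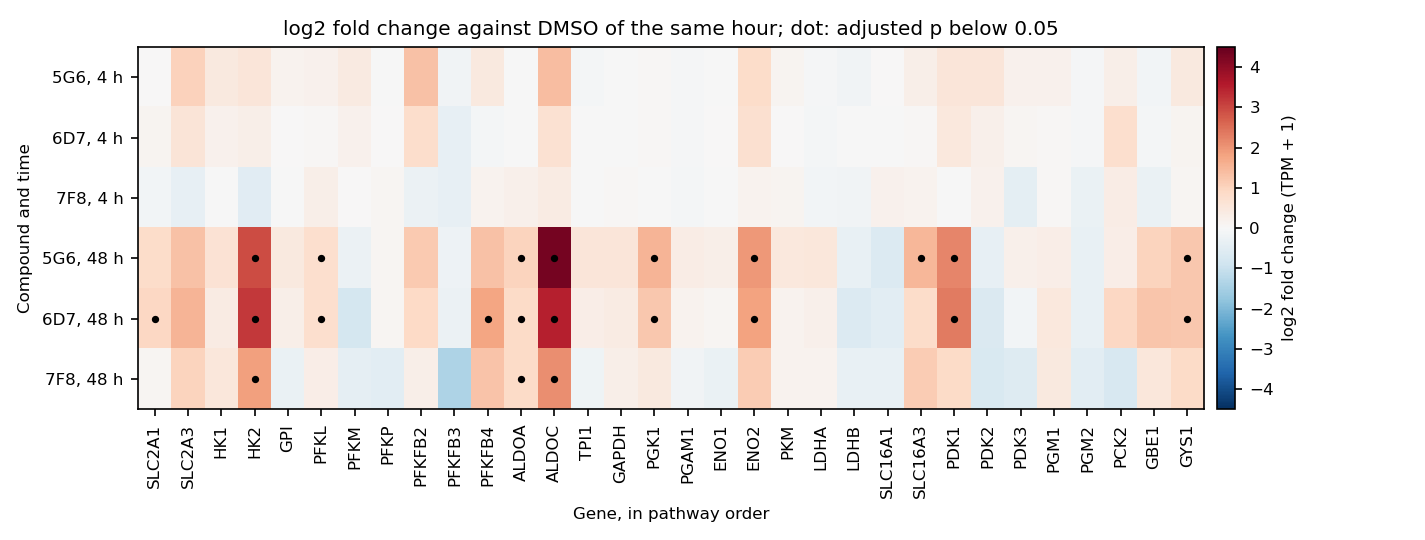
Log2 difference from DMSO of the same hour, on the log2(TPM + 1) scale, for each tested member (columns, in pathway order) and each compound and time (rows), with red for higher, blue for lower and a dot for a limma adjusted p below 0.05. No dot appears in the rows of 4 h, and at 48 h there are 9, 10 and 3.

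The compounds were also compared with each other at the same dose and hour, over 3 pairs at each time. The labels give only codes, so no difference in structure can be named. At 4 h the limma fit called 0 members in each pair, for 5G6 and 6D7, 5G6 and 7F8, and 6D7 and 7F8, beside 0, 0.00627 and 0% of all genes. At an unadjusted p below 0.05 there were 0, 2 and 1 members, beside 1.19, 10 and 5.77% of all genes. At 48 h, 5G6 and 6D7 differed in 0 members, with 0 at an unadjusted p below 0.05, beside 0.00627 and 2.13% of all genes. The 95% interval of that difference ran from -1.13 to 0.59 for HK2, from -0.46 to 2.02 for ALDOC and from -0.16 to 0.79 for PGK1, so differences of about 2-fold for HK2 and more for ALDOC are not excluded by these data. Between 5G6 and 7F8 the fit called 0 members beside 0.288% of all genes. At an unadjusted p below 0.05 there were 15, all higher with 5G6, beside 9.11% of all genes. PGK1 and TPI1 came closest, by 1.11 (95% interval 0.64 to 1.59) and 0.75 (0.43 to 1.06), both with limma adjusted p = 0.0692.

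Between 6D7 and 7F8 at 48 h the fit called 1 member, PCK2, beside 0.489% of all genes. The difference was 1.67 (95% interval 1.02 to 2.31, limma adjusted p = 0.0358), and both 6D7 libraries lay above both 7F8 libraries. Without either 6D7 library or without the first 7F8 library, this call was lost. The members with the largest other differences from 7F8 were PDK1, by 1.48 (0.64 to 2.32, limma adjusted p = 0.131), and HK2 and ALDOC, by 1.34 and 1.42.

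The change with time was tested as the difference from DMSO at 48 h minus that at 4 h, and limma called 0 members for each compound, beside 0, 0 and 0.00627% of all genes. At an unadjusted p below 0.05 there were 10 members with 5G6, 11 with 6D7 and 3 with 7F8, beside 7.59, 7.75 and 8.67% of all genes. The interaction of HK2 was 2.39 with 5G6 (SE 0.56, limma adjusted p = 0.460), 2.93 with 6D7 (limma adjusted p = 0.316) and 2.37 with 7F8 (limma adjusted p = 0.289). Calls at 48 h and none at 4 h are therefore not shown to differ between the times. In DMSO alone, 48 h against 4 h gave 0 calls with limma (0% of all genes). At an unadjusted p below 0.05 there was 1 member, ENO2 (0.85, SE 0.34), beside 2.35% of all genes.

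Around the members, 96 further genes of sugar metabolism were listed in 6 groups, and 78 of them were tested. The limma fit called 0 of these at 4 h with each compound. At 48 h it called 2 higher and 1 lower with 5G6, 2 higher and 1 lower with 6D7, and 3 higher and 4 lower with 7F8. These are 3.85, 3.85 and 8.97% of the 78, near or below the 4.06, 5.97 and 8.79% of all tested genes. Their median differences were 0.00, -0.06 and -0.21. SLC2A6 (GLUT6), a sugar transporter of lysosomes, rose with all 3 compounds. It was at 34.0 and 33.6 TPM with DMSO, 121 and 107 TPM with 5G6, 109 and 113 TPM with 6D7, and 116 and 138 TPM with 7F8. The treated libraries lay far above the controls, with differences of 1.73, 1.69 and 1.88 (SE 0.23 each, limma adjusted p = 0.00635, 0.00436 and 0.00205). At 4 h SLC2A6 already had the smallest p of these genes with each compound, at 104 and 66.6 TPM with 5G6, 62.7 and 43.8 TPM with 6D7, and 82.6 and 69.8 TPM with 7F8 against 32.2 and 31.8 TPM, and was not called (limma adjusted p = 0.197, 1 and 0.262). The next smallest p at 4 h belonged to the pyruvate dehydrogenase phosphatase PDP2 (1.16) and the glycogen-targeting subunit PPP1R3E (0.78) with 5G6, to PPP1R3B (1.00) and PDP1 (0.70) with 6D7, and to the transcription factor MLX (-0.43) and PRPS1 (-0.40) with 7F8, none of them called.

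The pentose phosphate pathway, which draws glucose 6-phosphate away to make NADPH and ribose, had 11 tested genes. PRPS1, which makes phosphoribosyl pyrophosphate from ribose 5-phosphate, fell with all 3 compounds at 48 h. It was at 125 and 123 TPM with DMSO, 55.2 and 71.3 TPM with 5G6, 65.1 and 66.6 TPM with 6D7, and 48.6 and 55.2 TPM with 7F8. No treated library reached the controls, and the differences were -0.97, -0.90 and -1.24 (SE 0.17 each, limma adjusted p = 0.0131, 0.0140 and 0.00312). RPIA, the ribose 5-phosphate isomerase, fell with 7F8 by 0.90 on the log2 scale (limma adjusted p = 0.0170). PGAM2, the muscle form of the mutase, rose with 6D7 from 3.43 and 3.35 TPM to 15.6 and 9.70 TPM (limma adjusted p = 0.0411). PPP1R3D, a glycogen-targeting subunit of protein phosphatase 1, was called with 5G6 and 7F8 but was listed at 0 in both DMSO libraries of 48 h and in 1 6D7 library, so no fold is given. Of 11 transcription factors known to act on glycolysis genes, 0 were called with any compound at 48 h, and HIF1A, the oxygen-regulated subunit, was at 154 and 269 TPM with DMSO and between 78.0 and 259 TPM with the compounds.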

How the data were processed

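Poly(A) RNA of 16 A549 CD63-Nluc samples (8 groups, 2 replicates) was sequenced. Per the labels' protocols, TRIzol RNA was cleared of DNA with DNase I, and 1 µg went into each NEBNext Ultra library. The submitters' processing notes name STAR 2.6.1a, featureCounts 1.6.3, StringTie 2.0 and GRCh38, without the role of each. Strandedness and the treatment of reads with several matches are not given in the sources used here, so reads of overlapping antisense genes and near copies cannot be told apart. The deposited gene tables hold TPM values, made by the authors per length and library, FPKM values, also deposited by the authors, and, per the file headers, mean read coverage. Coverage and FPKM gave the aligned bases per library. No read counts were used. The groups come from the titles, and the series text calls the replicates biological, and p-values reflect only the spread within each pair.

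TPM was summed over rows of 1 gene name (GPI stands at 2 places), mitochondrial genes were dropped and the rest rescaled. Genes that reached a TPM of 1 in 2 or more libraries entered 1 limma model (version 3.58.1, R 4.3.3) of log2(TPM + 1) on the 8 groups, which left 8 residual degrees of freedom, to which the trended prior added 3.80 (median). The 16 comparisons were tested two-sided, each with its own Benjamini-Hochberg adjustment. The fit was run on simulated data with independent noise in each library. Those simulated data lack a deviation shared by same-numbered libraries, so they do not vouch for the calls here. Other steps used pandas 2.3.3 and numpy 2.4.6 under Python 3.11.15. The members, related genes, markers and tests were chosen with earlier results of these data known. Every member is accounted for. Called members have every value given, and others have a difference and p where it reached 1 on the log2 scale or where an isozyme was called. Of related genes, those with the 3 smallest p in each comparison with DMSO are named. Values of GAPDH, TPI1, LDHA, LDHB, PCK2, HIF1A, HKDC1, ENO3 and PDK4 beyond this were chosen after they were seen. Alternatives were TPM as deposited, median-of-ratios scaling, a pseudocount of 0.1, no filter, the libraries of 1 time point, a replicate block, leaving out each library, and coverage in place of TPM, which was added after seeing the data.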

Additional observations from a re-analysis of the deposited data

How the results depend on the processing

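With the libraries of the compared time point alone, 0 members were called with 5G6, 6D7 or 7F8 against DMSO at 48 h and 0 between 6D7 and 7F8, where the full fit gave 9, 10, 3 and 1. Fewer samples then set the spread, and over all genes 6, 7 and 252 were called against DMSO. TPM as deposited, with mitochondrial genes kept, called 17 members with 6D7, 6 with 7F8 (5 higher, 1 lower) and 14 between 6D7 and 7F8. Over all genes, the same setting called 12.4% with 6D7, 8.49% with 7F8 and 16.5% between 6D7 and 7F8. Of the 2518 calls between 6D7 and 7F8, 2487 were higher with 6D7, and the median of all genes there was 0.50. TPM as deposited moved the median of all genes with 6D7 against DMSO from -0.06 to 0.29. The split of the 6D7 calls moved from 381 higher of 953 to 1666 higher of 1899. Median-of-ratios scaling called 7 members with 7F8, all higher, moved the median of all genes there from -0.18 to 0.00, and its split from 365 higher of 1403 to 554 higher of 1133. With 5G6 it moved the split from 311 higher of 648 to 364 higher of 575. Without the filter, 0 members were called between 6D7 and 7F8. Leaving out 1 library gave 0 to 7 calls with 5G6, 0 to 9 with 6D7 (the 9, without its second library, were 7 higher and LDHB and PFKM lower), 0 to 3 with 7F8, 0 to 1 between 6D7 and 7F8, and 0 to 1 for the time difference of 6D7. The members' median ranged from 0.34 to 0.75, 0.26 to 0.76 and -0.03 to 0.34 over these, the last turning below 0 without the first DMSO library of 48 h. A pseudocount of 0.1 called 8, 10 and 3 members, beside 3.43, 4.98 and 8.55% of all genes. No filter called 6, 8 and 2, beside 2.12, 2.68 and 4.62%. Coverage called 8, 10 and 4, beside 4.26, 5.83 and 9.24%. Where an arm was left with 1 library, that library was assumed to vary like the other groups. No member called against DMSO at 48 h changed sign under any setting, though each setting reused libraries from which the calls came.

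The replicate numbers are a number in the titles only. Over 28 pairs of groups, the deviations of same-numbered libraries correlated at 0.0536 to 0.588 (median 0.310), with 25 over 0.1. Within 4 h the correlations ran from 0.355 to 0.588, within 48 h from 0.380 to 0.547, and across the times from 0.0536 to 0.336. Same-numbered libraries thus shared part of their deviation within each time, which the main fit does not model. With a replicate block the fit called 14 members with 5G6, 13 with 6D7 (12 higher, 1 lower), 7 with 7F8 (6 higher, 1 lower), 2 between 5G6 and 7F8 and 3 between 6D7 and 7F8. The lower calls were LDHB with 6D7 and PFKFB3 with 7F8. SLC2A3 was not called with the block either (limma adjusted p = 0.186, 0.120 and 0.288). Over all genes the fit with the block called 1709, 2000 and 2721 against DMSO at 48 h (10.7, 12.5 and 17.1%). It called 181 genes (1.13%) between 5G6 and 7F8 and 328 (2.06%) between 6D7 and 7F8.

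With 2 libraries a group and no read counts, the precision of low members such as HK2 and PDK1 in DMSO is not known from depth.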

Other observations

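The libraries numbered 2 stood above those numbered 1 at 48 h for many members. In all 4 groups of 48 h the second library was higher for 20 of 32 members (62.5%), beside 5259 of 15958 tested genes, and the first was higher in all 4 for 0 members, beside 11.7% of all genes. The second library was higher for 29 members with DMSO, 31 with 5G6, 28 with 6D7 and 24 with 7F8. At 4 h, 7 members were higher in the second library of all 4 groups (21.9%, beside 15.0% of all genes) and 6 in the first (18.8%, beside 23.8%). The labels do not say what the numbers share.

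The members together took 2.25 to 2.61% of TPM in the 8 libraries of 4 h. At 48 h they took 2.51 and 2.91% with DMSO, 3.68 and 4.06% with 5G6, 2.87 and 3.90% with 6D7, and 2.99 and 2.96% with 7F8. All treated libraries of 48 h except the first of 6D7 lay above both controls.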
